A study of Mus musculus with 16 samples.

Results

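Expression of 10 non-collagen fibroblast and matrix genes (Postn, Lum, Dcn, Fn1, Sparc, Fbn1, Lox, Pdgfra, Pdgfrb and Acta2) was followed across 16 mouse RNA-seq libraries. They were chosen by name, with earlier results of these data known, from the 55421 genes listed in every library's table. All 10 were found, and all 10 passed the filter on low counts in WAT (white adipose tissue) and in liver. The libraries formed 8 groups of 2, from C57BL/6 mice on a diet written HFD, and the labels give macrophages from WAT or liver as the RNA source, with tissue placed in liquid nitrogen. In each tissue the groups were GPR132fl/fl mice given the antagonist NOX_6_18 (fl/fl on NOX_6_18), Lyz2_cre+/_GPR132fl/fl mice given vehicle (CKO on vehicle), the same genotype given NOX_6_18 (CKO on NOX_6_18), and GPR132fl/fl mice given vehicle (fl/fl on vehicle). GPR132 is a G protein-coupled receptor. All groups carry the floxed Gpr132 allele, and Cre in the CKO is driven by Lyz2, a gene of myeloid cells, so deletion would be limited to cells that have expressed it. Ages are not given in the labels used here. Whether both libraries of a group are separate animals is not given either, and the p-values then reflect only library-to-library spread, possibly a technical one.

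Fibroblasts and mural cells (pericytes and smooth muscle cells) make most of the matrix of fat. Fibronectin (Fn1) and fibrillin-1 (Fbn1) are laid down as fibrils, the small leucine-rich proteoglycans decorin (Dcn) and lumican (Lum) bind collagen fibrils, lysyl oxidase (Lox) cross-links collagen and elastin, and the matricellular proteins periostin (Postn) and SPARC tie matrix assembly to cells. Pdgfra and Pdgfrb encode receptors for platelet-derived growth factors; Pdgfra usually marks fibroblasts and fat progenitors, and Pdgfrb mural cells. Acta2 encodes smooth muscle actin, a filament of smooth muscle and myofibroblasts.

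Libraries held 45624957 to 60761705 counts. The fl/fl vehicle libraries stood apart in WAT, with 25039 and 25702 genes detected, against 30393 to 31289 in the other 6 WAT libraries. The other 6 also carried more transcripts that mark cells of the testis. Summed levels in CPM (counts scaled to a common library size with edgeR's TMM factors) were 716 to 790 for 6 spermatid markers, against 18.9 to 23.1 in fl/fl on vehicle, and 261 to 308 for 6 Leydig cell markers, against 25.4 to 26.7 in fl/fl on vehicle. Macrophage markers were present beside those of other cells: 12 of them summed to 8014 to 8350 CPM in the other 6 libraries, against 11048 to 11970 in fl/fl on vehicle, and 14 fibroblast and adipose progenitor markers summed to 6644 to 7139 CPM, against 8279 to 8285 in fl/fl on vehicle. Endothelial markers (8 genes) summed to 1722 to 1833 CPM, against 2404 to 2517 in fl/fl on vehicle. Gsn made up most of the fibroblast sum, with a mean of 5290 CPM over the 8 WAT libraries. The part of these marker differences in the members' results was not tested, and fewer cells of a type cannot be told apart from less RNA per cell. Gpr132 had 60.3 and 60.1 CPM in WAT of fl/fl on NOX_6_18, 35.6 and 64.5 CPM in CKO on vehicle and 56.4 and 59.1 CPM in CKO on NOX_6_18, against 72.5 and 69.7 CPM in fl/fl on vehicle. For CKO on vehicle the WAT log2 fold change of −0.51 ± 0.22 missed the threshold (edgeR adjusted p = 0.115). In liver Gpr132 had 2.13 and 1.64 CPM in fl/fl on NOX_6_18, 1.86 and 1.46 CPM in CKO on vehicle and 2.81 and 2.41 CPM in CKO on NOX_6_18, against 4.26 and 4.04 CPM in fl/fl on vehicle. There it fell in CKO on vehicle (−1.32 ± 0.24, adjusted p = 0.0162) and in fl/fl on NOX_6_18 (−1.13 ± 0.24, adjusted p = 0.0313), and the interaction was 1.79 ± 0.34 (adjusted p = 0.0344).

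In fl/fl WAT on NOX_6_18, 8 of the 10 genes fell, Pdgfra did not pass the test and Acta2 rose, although Acta2 and Fn1 took the opposite sign, without a call, once a GC and length trend was removed. Of all 25871 genes fitted, 37.8% were called (24.6% higher, 13.2% lower) by edgeR's quasi-likelihood test at an adjusted p under 0.05. The members' median log2 fold change was −0.53, and that of all genes was 0.12. Since the members were chosen with earlier results known, setting them beside all genes is a description and no independent test. CKO against fl/fl on vehicle gave the same counts, 8 lower and 1 higher, with 36.8% of all genes called (24.4% higher, 12.4% lower), and so did CKO on NOX_6_18 against fl/fl on vehicle, with 38.2% called (24.8% higher, 13.4% lower). All 3 comparisons use the same pair of fl/fl vehicle libraries, so they are not independent. Groups that do not overlap were common among all genes in the same comparisons. By CPM, both fl/fl NOX_6_18 libraries lay above both fl/fl vehicle libraries for 40.2% of genes and below them for 28.6%. These shares were 38.8% and 27.7% for CKO on vehicle, and 40.7% and 28.2% for CKO on NOX_6_18. Each sets a single group against fl/fl on vehicle. The share of genes whose fl/fl vehicle pair lay apart from all other WAT libraries was not computed.

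**Figure D1:**
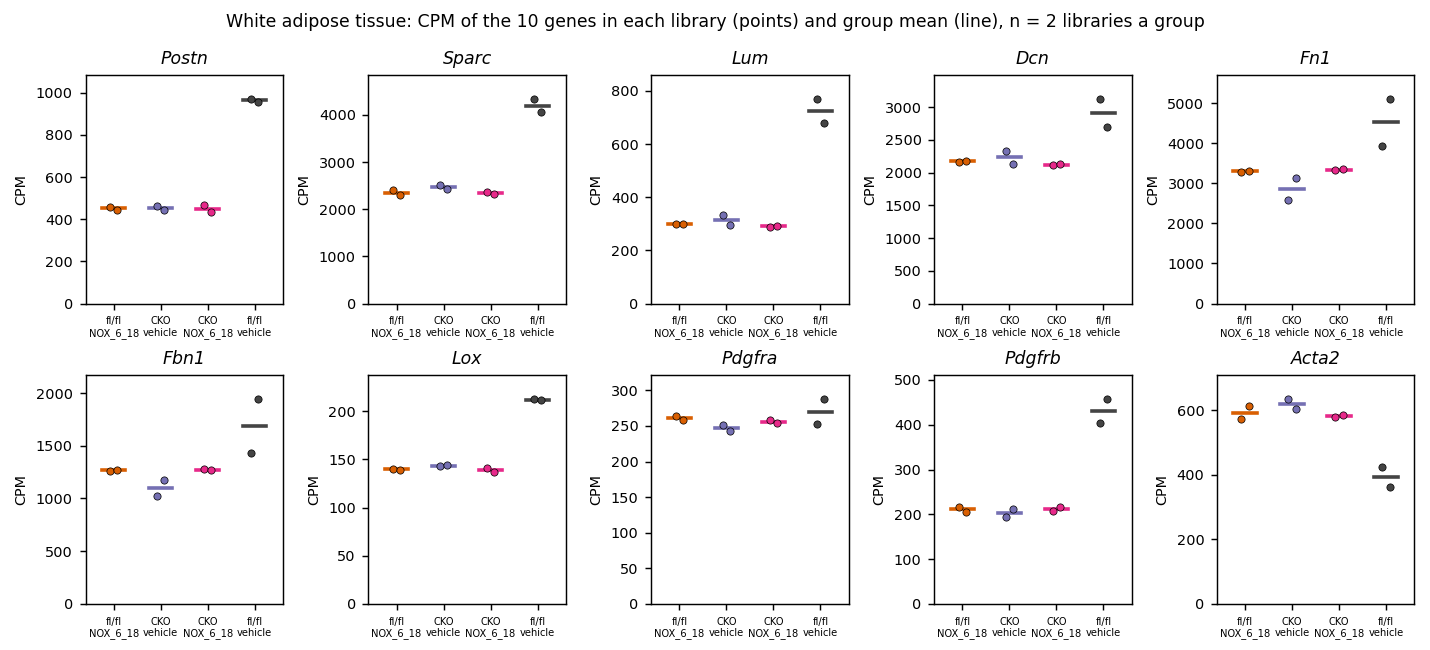
CPM of the 10 genes in white adipose tissue, with points for the 2 libraries of each group, lines for the group mean and each axis starting at 0. The fl/fl vehicle libraries lie above the other 6 for 8 genes (Postn at 958 and 970 CPM, against 434 to 467), overlap them for Pdgfra and lie below them for Acta2.

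Postn, a secreted matricellular protein of connective tissue, is at chr3:54361109-54391037 on the plus strand (GRCm38). The 250 bases upstream of a RefSeq start are shown because Postn fell in all 3 comparisons with fl/fl on vehicle, with the motif TATATAA in capitals. RefSeq lists a further Postn start, with its promoter at chr3:54359017-54359316, whose upstream bases hold none of the motifs searched; the one shown lies nearest to the annotated gene start. Of 32851 promoters of that length in the RefSeq table (GRCm38.p6), 3.04% hold TATATAA, searched on both strands; in the Postn promoter shown it begins 28 bases before the start, and 5 of the 10 members had a promoter there.
Postn, chr3:54360857-54361106, plus strand: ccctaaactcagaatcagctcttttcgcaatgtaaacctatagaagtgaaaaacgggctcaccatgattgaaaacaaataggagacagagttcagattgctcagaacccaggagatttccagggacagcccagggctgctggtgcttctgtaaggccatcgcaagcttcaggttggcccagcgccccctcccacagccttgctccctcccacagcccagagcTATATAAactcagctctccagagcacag
Postn stood at 458 and 445 CPM in fl/fl on NOX_6_18, 463 and 446 CPM in CKO on vehicle and 467 and 434 CPM in CKO on NOX_6_18, against 970 and 958 CPM in fl/fl on vehicle. The highest of the other 6 libraries was 1.08 times the lowest, and none reached the fl/fl vehicle pair. The log2 fold change was −1.09 ± 0.05 (SE) for NOX_6_18 in fl/fl (edgeR adjusted p = 1.76e-06) and −1.08 ± 0.05 for CKO on vehicle (adjusted p = 1.83e-06).

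Sparc, a collagen-binding protein, was the most abundant member per exon length in every group. It stood at 2403 and 2305 CPM in fl/fl on NOX_6_18, 2515 and 2423 CPM in CKO on vehicle and 2371 and 2325 CPM in CKO on NOX_6_18, against 4338 and 4053 CPM in fl/fl on vehicle. The groups did not overlap, and the log2 fold change was −0.83 ± 0.05 for NOX_6_18 in fl/fl (edgeR adjusted p = 3.05e-06) and −0.76 ± 0.05 for CKO on vehicle (adjusted p = 5e-06). Among 20 matricellular genes, members included, 12 fell and 3 rose with NOX_6_18 in fl/fl, where 13.2% of all genes fell and 24.6% rose. The list's median log2 fold change was −0.38. Thbs2, a thrombospondin, fell by 1.07 on the log2 scale (adjusted p = 1.29e-05) and Spp1, osteopontin, which macrophages also make, fell by 1.29 (adjusted p = 0.000119). Smoc1, a secreted calcium-binding protein named after its values were seen, rose by 1.23 (adjusted p = 0.000122).

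The small leucine-rich proteoglycans Dcn and Lum are neighbours on chromosome 10, both on the plus strand, Dcn at chr10:97479609-97518143 and Lum at chr10:97565128-97572703, 46984 bases apart. Lum had the largest fall of the 10. It stood at 298.7 and 299.5 CPM in fl/fl on NOX_6_18, 333 and 297 CPM in CKO on vehicle and 289 and 292 CPM in CKO on NOX_6_18, against 769 and 679 CPM in fl/fl on vehicle. Dcn stood at 2120 to 2337 CPM in the other 6 libraries, against 2694 to 3125 CPM in fl/fl on vehicle. The fl/fl vehicle libraries did not overlap the other 6 for either gene, and Lum was at 41.3% of the fl/fl vehicle mean in fl/fl on NOX_6_18 and Dcn at 74.7%. The log2 fold changes for NOX_6_18 in fl/fl were −1.28 ± 0.08 for Lum (edgeR adjusted p = 5.72e-06) and −0.42 ± 0.07 for Dcn (adjusted p = 0.00216). The size depended on scaling: with the GC and length trend removed Lum was at −2.17 for NOX_6_18 in fl/fl and −2.09 for CKO on vehicle, where TMM alone gave −1.28 and −1.20, and with library totals Dcn was at −0.25 and −0.21, where TMM alone gave −0.42 and −0.38. Of 10 proteoglycans of the family, 6 fell and 0 rose, with a median log2 fold change of −0.48, and Bgn, biglycan, fell by 0.85 on the log2 scale (adjusted p = 1.55e-05).

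Fibronectin and fibrillin-1 are the fibril-forming members. Fn1 stood at 3287 and 3308 CPM in fl/fl on NOX_6_18, 2584 and 3137 CPM in CKO on vehicle and 3330 and 3353 CPM in CKO on NOX_6_18, against 3938 and 5099 CPM in fl/fl on vehicle. Fbn1 stood at 1264 and 1274 CPM in fl/fl on NOX_6_18, 1021 and 1177 CPM in CKO on vehicle and 1275 and 1274 CPM in CKO on NOX_6_18, against 1430 and 1940 CPM in fl/fl on vehicle. The groups did not overlap, but the 2 fl/fl vehicle libraries were far apart for both genes. For NOX_6_18 in fl/fl the log2 fold change was −0.45 ± 0.12 for Fn1 (edgeR adjusted p = 0.0184) and −0.41 ± 0.13 for Fbn1 (adjusted p = 0.0348). Both calls were lost without replicate 2 of fl/fl on vehicle, at −0.25 for Fn1 (adjusted p = 0.0701) and −0.17 for Fbn1 (adjusted p = 0.124), and without either fl/fl NOX_6_18 library (adjusted p = 0.0882 to 0.0966 for Fn1 and 0.137 to 0.148 for Fbn1). With a GC and length trend removed the values were 0.02 for Fn1 and −0.06 for Fbn1. For CKO on vehicle Fn1 was at −0.66 and Fbn1 at −0.62, each keeping its call under 12 of 13 alternatives. The values nearest 0 under them were −0.12 for Fn1 and −0.19 for Fbn1. Fn1 shares exon bases with Apol7d and Fbn1 with Gm9913 on the opposite strand, and the strand setting of the counting is not given in the sources used here, so their counts are uncertain to that extent.

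Within fl/fl on vehicle, the ratio of replicate 2 to replicate 1 followed exon length over the 10 genes. It was 1.36 for Fbn1 (12128 exon bases) and 1.29 for Fn1 (11685 bases), and 0.852 for Acta2 (2196 bases) and 0.883 for Lum (2448 bases). Spearman's rho of the ratio with length over the 10 genes, which share the same 2 libraries, was 0.65 in CKO on vehicle, 0.09 in fl/fl on NOX_6_18 and −0.27 in CKO on NOX_6_18, and 0.82 in fl/fl on vehicle. With the GC and length trend removed, the log2 fold change for NOX_6_18 in fl/fl was −1.20 for Postn, −0.86 for Sparc, −0.62 for Dcn and −0.85 for Lox, each still called. The part of length alone in the fold changes was not tested.

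**Figure D2:**
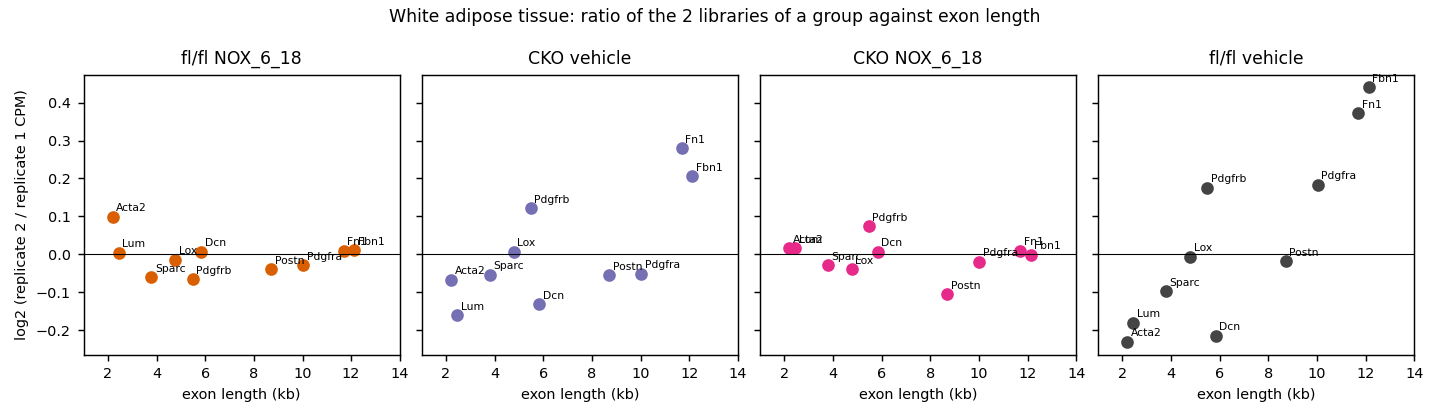
Log2 ratio of replicate 2 to replicate 1 CPM against exon length in kilobases for the 10 genes in each white adipose tissue group. In fl/fl on vehicle the longest genes, Fbn1 and Fn1, lie at ratios of 1.36 and 1.29 and the shortest, Acta2, at 0.852.

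Of 17 microfibril and elastic fibre genes, Fbn1 included, 10 fell and 2 rose with NOX_6_18 in fl/fl WAT, with a median log2 fold change of −0.34. Fbln2 (fibulin-2) fell by 0.81 on the log2 scale (edgeR adjusted p = 6.14e-06), Mfap2, a microfibril-associated protein, by 1.08 (adjusted p = 6.99e-05) and Fbln5 by 0.62 (adjusted p = 0.000192). Fbn2, a fibrillin prominent in development, rose by 1.19 (adjusted p = 0.000408). With the GC and length trend removed the list split into 7 lower and 8 higher. The shares of all genes called for this comparison were given with TMM, and those under this scaling are not given here. Among 7 fibronectin receptor genes 3 fell and 1 rose; the integrin subunit Itgb1 fell by 0.43 (adjusted p = 0.000105) and Itga8, a subunit found on smooth muscle and mesenchyme, rose by 0.98 (adjusted p = 7.71e-05). The receptor list's median was −0.09, and it was 0.12 with the trend removed and 0.08 with library totals as the only scaling.

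Lox was close to constant within each group. It stood at 140.4 and 139 CPM in fl/fl on NOX_6_18, 143 and 144 CPM in CKO on vehicle and 141 and 137 CPM in CKO on NOX_6_18, against 212 and 211 CPM in fl/fl on vehicle. The other 6 libraries lay below the fl/fl vehicle pair, and the log2 fold change was −0.60 ± 0.06 for NOX_6_18 in fl/fl (edgeR adjusted p = 8.78e-05) and −0.56 ± 0.06 for CKO on vehicle (adjusted p = 0.000129). Lox shares exon bases with AC161119.1 on the opposite strand. Of 9 cross-linking genes 7 fell and 0 rose, with a median of −0.53: Loxl1, a lysyl oxidase relative tied to elastin, fell by 0.70 on the log2 scale (adjusted p = 0.000116), Plod1, a collagen lysyl hydroxylase, by 0.56 (adjusted p = 0.000113) and Loxl2 by 0.54 (adjusted p = 0.000423).

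Of the PDGF receptors, Pdgfrb fell and Pdgfra did not pass the test. Pdgfrb stood at 216 and 206 CPM in fl/fl on NOX_6_18, 195 and 212 CPM in CKO on vehicle and 206 and 217 CPM in CKO on NOX_6_18, against 404 and 457 CPM in fl/fl on vehicle. Pdgfra stood at 264 and 258 CPM in fl/fl on NOX_6_18, 252 and 243 CPM in CKO on vehicle and 258 and 254 CPM in CKO on NOX_6_18, against 253 and 287 CPM in fl/fl on vehicle. Pdgfrb libraries did not overlap between fl/fl on vehicle and the rest, and Pdgfra libraries did. The log2 fold change for NOX_6_18 in fl/fl was −1.03 ± 0.08 for Pdgfrb (edgeR adjusted p = 2.22e-05) and −0.05 ± 0.07 for Pdgfra (adjusted p = 0.623). For CKO on vehicle it was −1.08 ± 0.08 for Pdgfrb (adjusted p = 1.64e-05) and −0.13 ± 0.07 for Pdgfra (adjusted p = 0.203). The Pdgfrb values were −0.54 for NOX_6_18 in fl/fl and −0.60 for CKO on vehicle with the GC and length trend removed, both still called. Pdgfra passed the test for CKO on vehicle without replicate 1 of fl/fl on vehicle (−0.21, adjusted p = 0.0288). With library totals or the trend removed, Pdgfra took the opposite sign, at 0.12 and 0.07 for NOX_6_18 in fl/fl. Pdgfra exons overlap Gm42802, Gm42803 and Mir7025.

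The Pdgfra upstream bases, for the member that did not pass the test, hold none of the motifs searched on both strands. These were TATATAA, the AP-1 motif TGANTCA, which 6.75% of the 32851 promoters hold, and the CArG box of serum response factor. The promoters of Sparc and Fbn1, members that fell, held none of these motifs either.
Pdgfra, chr5:75152001-75152250, plus strand, RefSeq, GRCm38.p6: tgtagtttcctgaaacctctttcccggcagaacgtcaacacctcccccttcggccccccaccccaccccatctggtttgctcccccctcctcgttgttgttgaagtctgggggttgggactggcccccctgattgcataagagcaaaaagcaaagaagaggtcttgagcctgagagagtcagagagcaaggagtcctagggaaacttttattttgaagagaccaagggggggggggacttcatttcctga
Of 7 PDGF ligands and receptors, 3 fell and 0 rose with NOX_6_18 in fl/fl WAT: Pdgfrb, its ligand Pdgfb by 0.97 on the log2 scale (edgeR adjusted p = 2.89e-05) and Pdgfc by 0.30 (adjusted p = 0.0339). For Pdgfb the fl/fl NOX_6_18 mean was 66.6 ± 4.05 CPM, against a fl/fl vehicle mean of 130.6 ± 0.799 CPM (SD, n = 2 each).

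Acta2 ran the other way. It stood at 572 and 613 CPM in fl/fl on NOX_6_18, 634 and 605 CPM in CKO on vehicle and 578 and 584 CPM in CKO on NOX_6_18, against 425 and 363 CPM in fl/fl on vehicle. All 6 other libraries lay above the fl/fl vehicle pair, and the log2 fold change was 0.59 ± 0.08 for NOX_6_18 in fl/fl (edgeR adjusted p = 0.000604) and 0.65 ± 0.08 for CKO on vehicle (adjusted p = 0.000343). The direction depended on scaling: with the GC and length trend removed it was −0.17 for NOX_6_18 in fl/fl (adjusted p = 0.0852) and −0.12 for CKO on vehicle (adjusted p = 0.2). That scaling moved the fold changes of all genes by a median of −0.23 for NOX_6_18 in fl/fl and −0.22 for CKO on vehicle.

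The Acta2 promoter is shown for 2 matches to the CArG box, allowing 1 G or C among its central A and T bases, that lie 84 and 34 bases before the RefSeq start; the match is in capitals, and 8.59% of the 32851 promoters hold such a box. The strict CArG box was in 1.47% of them, and Acta2 had none. In GENCODE the gene spans chr19:34241090-34255590, so both sites lie within it, downstream of its annotated start.
Acta2 site 1, chr19:34255438-34255467, minus strand, RefSeq, GRCm38.p6: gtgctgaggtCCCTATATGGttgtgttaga
Acta2 site 2, chr19:34255388-34255417, minus strand, RefSeq, GRCm38.p6: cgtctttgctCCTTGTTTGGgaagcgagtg
Of the 12 smooth muscle contractile genes in the list, Acta2 included, 8 had a promoter in the table, and Myl9 (myosin light chain) held 1 strict CArG box. Des, Lmod1, Synpo2, Tpm2, Cnn1 and Smtn held no match, even with 1 G or C allowed.

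Acta2 belongs to the contractile apparatus of smooth muscle, and Pdgfrb marks pericytes. With NOX_6_18 in fl/fl WAT, of 12 contractile genes, Acta2 included, 7 rose and 0 fell (24.6% of all genes rose and 13.2% fell), with a median log2 fold change of 0.41. Actg2, smooth muscle gamma-actin, rose by 1.27 (edgeR adjusted p = 8.13e-06), Cnn1, calponin, by 0.91 (adjusted p = 0.000199) and Myl9 by 0.45 (adjusted p = 0.00145). Tagln, another actin-binding gene of the list, named after its values were seen, was at 0.05 ± 0.08 (adjusted p = 0.664). Of 7 pericyte markers 6 fell and 0 rose, with a median of −0.61: Rgs5 fell by 0.86 (adjusted p = 3.84e-06), Kcnj8, a potassium channel, by 0.80 (adjusted p = 7.71e-05), Mcam by 0.61 (adjusted p = 0.000657) and Notch3 by 0.66 (adjusted p = 0.00294).

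Summed levels of both lists did not overlap between the groups. Contractile genes summed to 2144 to 2216 CPM in the other 6 libraries, against 1596 to 1632 CPM in fl/fl on vehicle. Pericyte markers summed to 1136 to 1205 CPM, against 1930 to 2010 CPM in fl/fl on vehicle. With the GC and length trend removed the contractile list stood at 7 higher and 2 lower, and the pericyte list at 1 higher and 5 lower. The shares of all genes called under that scaling are not given here, so these counts have no background beside them. Epididymal markers (6 genes) summed to 661 to 720 CPM in the other 6 libraries, against 258 to 282 CPM in fl/fl on vehicle, and their part in the contractile counts was not tested.

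**Figure D3:**
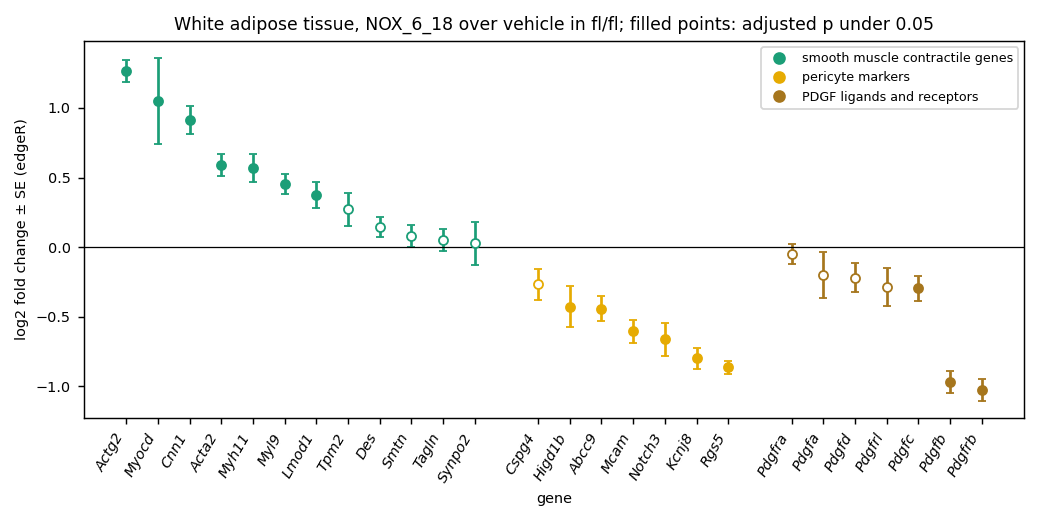
Log2 fold change with SE of NOX_6_18 over vehicle in fl/fl white adipose tissue for contractile genes, pericyte markers and PDGF genes; filled points have an edgeR adjusted p under 0.05. Contractile genes lie at or above 0 (Actg2 at 1.27), pericyte markers below (Rgs5 at −0.86), and Pdgfrb and Pdgfb lie well below Pdgfra.

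Whether the antagonist still moved these genes in CKO mice was asked in NOX_6_18 against vehicle in CKO WAT. By edgeR 0 of 10 members were called (0 at an unadjusted p under 0.05), with 0.0155% of all genes called, and log2 fold changes ran from −0.12 for Lum to 0.22 for Fn1. In CKO against fl/fl on NOX_6_18, 0 of 10 were called (0 at an unadjusted p under 0.05), with 0.0348% of all genes called and values from −0.04 to 0.02. Standard errors were 0.05 to 0.13, so the data do not show that the groups are alike. DESeq2, limma-voom and a fit without the fl/fl vehicle libraries also called 0 members in both comparisons.

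The treatment by genotype interaction, the NOX_6_18 effect in CKO minus that in fl/fl, was higher for 8 members and lower for Acta2 in WAT, with 25.3% of all genes called (6.71% higher, 18.6% lower). It was 1.16 ± 0.11 for Lum (edgeR adjusted p = 0.000113), 1.09 ± 0.11 for Pdgfrb (adjusted p = 0.00018), 1.08 ± 0.08 for Postn (adjusted p = 2.18e-05) and −0.68 ± 0.11 for Acta2 (adjusted p = 0.0027). For Pdgfra it was 0.10 ± 0.10 (adjusted p = 0.531). The number called higher was 5 without either fl/fl NOX_6_18 library, or without either CKO NOX_6_18 library, when Dcn, Fn1 and Fbn1 missed the threshold. The interaction uses the same fl/fl vehicle libraries as the other comparisons.

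**Figure D4:**
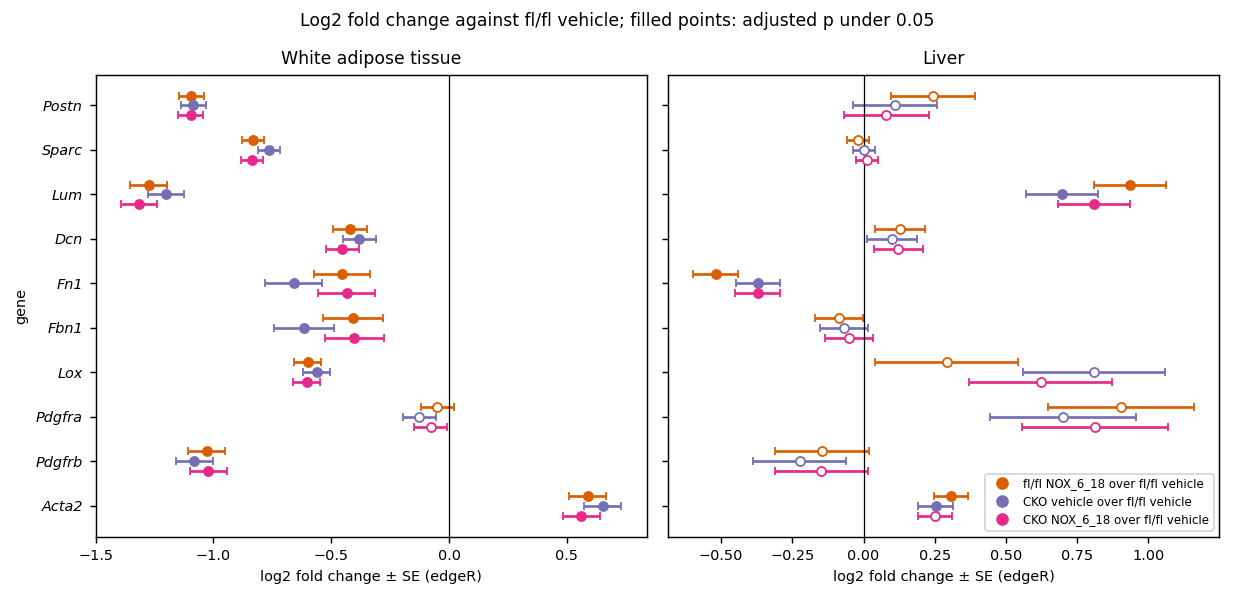
Log2 fold change with SE of each gene in the 3 comparisons with fl/fl on vehicle, in white adipose tissue and in liver (axes differ); filled points have an edgeR adjusted p under 0.05. In white adipose tissue the 3 comparisons lie close together for each gene (Postn at −1.09, −1.08 and −1.10), and in liver Lum lies above 0 and Fn1 below.

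In fl/fl on vehicle, WAT levels exceeded liver levels for all 10 genes, with 38.2% of all genes called (21.6% higher, 16.5% lower). The log2 difference ran from 1.35 ± 0.07 for Acta2 (edgeR adjusted p = 8.33e-09) to 5.99 ± 0.09 for Lum (adjusted p = 1.42e-13), with a median of 4.61. Under the alternative settings it was 1.25 to 2.30 for Acta2 and 5.92 to 6.94 for Lum, a spread these SEs leave out. Sums of cell type markers also differed between the tissues, and the part of cell make-up in these differences was not tested. Per exon length, as FPKM over all 16 libraries, Sparc ranked highest in each of the 8 groups, at 760 ± 26.7 in WAT and 169 ± 1.06 in liver of fl/fl on vehicle (SD, n = 2 each). In WAT of fl/fl on vehicle Dcn followed at 342, Fn1 at 266, Lum at 203, Acta2 at 123, Fbn1 at 95.5, Postn at 76.0, Pdgfrb at 54.0, Lox at 30.4 and Pdgfra at 18.5, and no neighbours in that order overlapped. Lum ranked below Acta2 in the other 3 WAT groups, at 84.6 FPKM for Lum and 187 FPKM for Acta2 in fl/fl on NOX_6_18. In liver of fl/fl on vehicle Acta2 followed Sparc at 48.3 FPKM, then Fn1 at 27.0, Dcn at 23.5, Fbn1 at 4.04, Lum at 3.19, Pdgfrb at 2.13, Postn at 1.74, Lox at 0.59 and Pdgfra at 0.392, where Pdgfrb and Postn overlapped.

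In liver, where hepatic stellate cells and portal fibroblasts are known to express many of these genes, 3 of the 10 members passed the test. With NOX_6_18 in fl/fl, Lum and Acta2 rose and Fn1 fell, with 5.52% of all 19515 genes called (3.78% higher, 1.74% lower). Lum stood at 10.3 and 10.5 CPM in fl/fl on NOX_6_18, 8.99 and 8.59 CPM in CKO on vehicle and 9.90 and 9.10 CPM in CKO on NOX_6_18, against 5.20 and 5.65 CPM in fl/fl on vehicle. Its log2 fold change for NOX_6_18 in fl/fl was 0.93 ± 0.13 (edgeR adjusted p = 0.0036). Fn1, which hepatocytes also make, stood at 167 and 139.6 CPM in fl/fl on NOX_6_18, 166 and 173 CPM in CKO on vehicle and 173 and 166 CPM in CKO on NOX_6_18, against 221 and 217 CPM in fl/fl on vehicle. The Fn1 log2 fold change for NOX_6_18 in fl/fl was −0.52 ± 0.08 (edgeR adjusted p = 0.00651). Neither gene's fl/fl vehicle pair overlapped the other 6 libraries. Of all liver genes, 24.1% lay higher and 24.1% lower without overlap for NOX_6_18 in fl/fl, and 24% and 24.5% for CKO on vehicle. These shares set a single group against fl/fl on vehicle, and a share against all 6 other libraries was not computed.

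Liver Acta2 stood at 88.9 and 93.7 CPM in fl/fl on NOX_6_18, 89.7 and 86.1 CPM in CKO on vehicle and 85.4 and 90.07 CPM in CKO on NOX_6_18, against 72.4 and 75.1 CPM in fl/fl on vehicle. It rose with NOX_6_18 in fl/fl (log2 fold change 0.31 ± 0.06, edgeR adjusted p = 0.0237), a call lost without any 1 of the 4 libraries (adjusted p = 0.0615 to 0.135). Sparc, the most abundant member, gave 448 and 432 CPM in fl/fl on NOX_6_18, against 443 and 449 CPM in fl/fl on vehicle. Its groups overlapped. Lox, with 94 to 212 counts in a liver library, and Pdgfra, with 131 to 363, did not pass the test (Pdgfra log2 fold change 0.90 ± 0.26, adjusted p = 0.0908). Hepatocyte markers (10 genes) summed to 3164 to 3254 CPM in the other 6 liver libraries, against 2854 to 2998 CPM in fl/fl on vehicle, and their part in the Fn1 values was not tested.

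For CKO against fl/fl on vehicle in liver, 2 members rose and 1 fell, with 5.8% of all genes called (3.96% higher, 1.83% lower): Lum at 0.70 ± 0.13 (edgeR adjusted p = 0.0156), Acta2 at 0.25 ± 0.06 (adjusted p = 0.0495) and Fn1 at −0.37 ± 0.08 (adjusted p = 0.0305). Without any 1 of the 4 libraries 0 members were called. In CKO on NOX_6_18 against fl/fl on vehicle, Lum rose by 0.81 (adjusted p = 0.00787) and Fn1 fell by 0.37 (adjusted p = 0.0315), with 5.48% of all genes called (3.79% higher, 1.69% lower). Without any 1 of those 4 libraries 0 members were called lower, and without replicate 1 of fl/fl on vehicle or replicate 1 of CKO on NOX_6_18, 0 were called higher. NOX_6_18 in CKO liver and CKO against fl/fl on NOX_6_18 each gave 0 of 10 members by edgeR (0 at an unadjusted p under 0.05), with 0.0359% of all genes called in each, and the liver interaction gave 0 (3 at an unadjusted p under 0.05), with 2.45% called (0.584% higher, 1.87% lower). DESeq2 and limma-voom each called 1 member for the interaction and 0 for the other pair of comparisons.

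**Figure D5:**
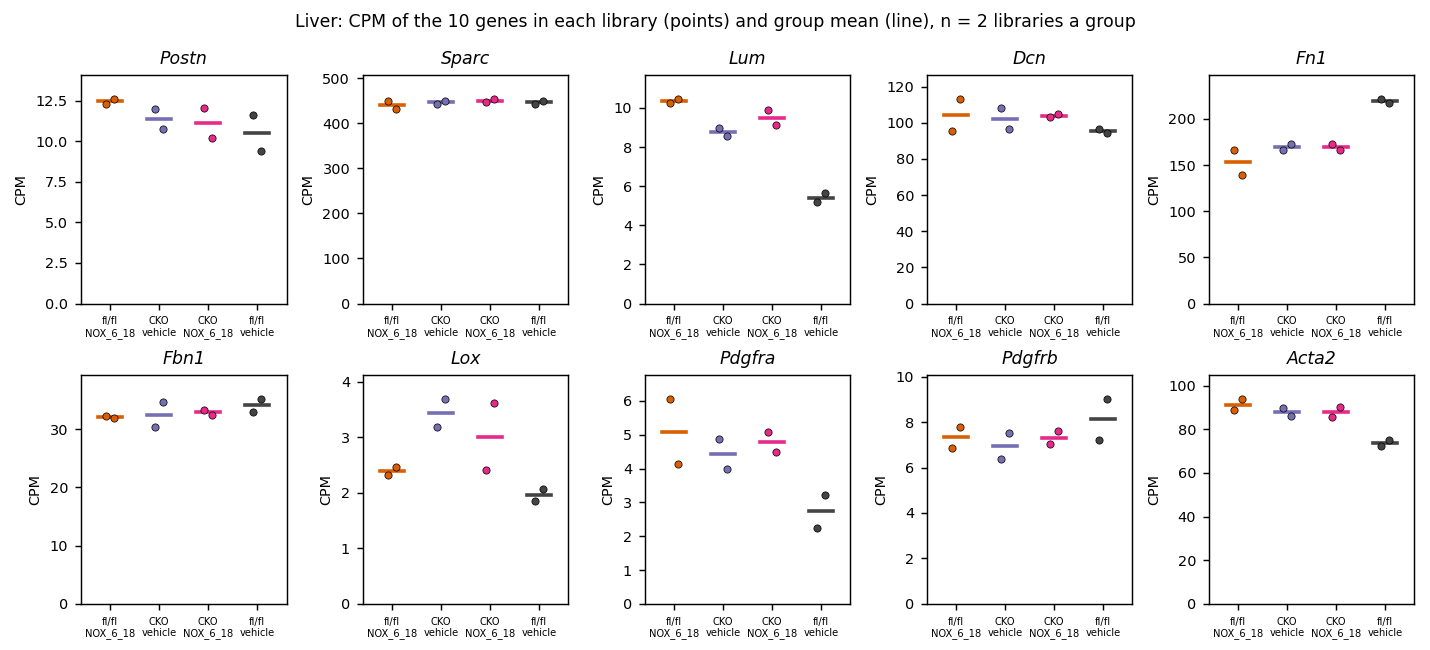
CPM of the 10 genes in liver, with points for the 2 libraries of each group, lines for the group mean and each axis starting at 0. The fl/fl vehicle libraries lie below the other 6 for Lum (5.20 and 5.65 CPM, against 8.59 to 10.5) and Acta2, and above them for Fn1.

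The NOX_6_18 effect in fl/fl was compared between the tissues directly. It was lower in WAT than in liver for 7 members and higher for 0, with 14.7% of all genes called (7.52% higher, 7.2% lower). The difference was −2.21 ± 0.11 for Lum (edgeR adjusted p = 2.32e-07), −1.33 ± 0.14 for Postn (adjusted p = 6.05e-05) and −0.81 ± 0.06 for Sparc (adjusted p = 3.21e-06), and for Fn1 it was 0.07 ± 0.17 (adjusted p = 0.994). The same difference for CKO on vehicle was lower for 7 members and higher for Acta2, with 14.2% of all genes called (7.44% higher, 6.75% lower). Several of these calls rested on single libraries. For NOX_6_18 the Pdgfra call was lost without replicate 2 of WAT fl/fl on vehicle, either WAT fl/fl NOX_6_18 library, or replicate 1 of liver fl/fl on vehicle or on NOX_6_18 (adjusted p = 0.0551 to 0.109). For CKO on vehicle it was lost without any 1 of the 4 WAT libraries or replicate 1 of either liver group (adjusted p = 0.053 to 0.21). The Dcn call for CKO on vehicle was lost without replicate 1 of WAT fl/fl on vehicle, replicate 2 of WAT CKO on vehicle, replicate 2 of liver fl/fl on vehicle or replicate 1 of liver CKO on vehicle (adjusted p = 0.0552 to 0.0737). With library totals Dcn was not called for CKO on vehicle (adjusted p = 0.119) or for NOX_6_18 (adjusted p = 0.0595). The Acta2 call for CKO on vehicle was lost without replicate 2 of WAT fl/fl on vehicle, replicate 1 of WAT CKO on vehicle or replicate 2 of liver CKO on vehicle (adjusted p = 0.0523 to 0.061), and Acta2 was −0.41 with the GC and length trend removed (adjusted p = 0.0057).

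Over the 8 WAT libraries, the genes with the profile most like the members' mean log2 CPM were Mpeg1, Thbs2, Col3a1, Gpr137b and Fstl1. Each had a Pearson's r of 0.999 (8 libraries, given without a test, since libraries share groups). With each member centred on its WAT mean, the profile was 0.40 and 0.45 in fl/fl on vehicle. It was −0.16 to −0.13 in the other 6 libraries, so r mostly follows the contrast with the fl/fl vehicle pair. Among the members, each of which is itself part of the mean profile, r with it was 0.996 for Postn, 0.995 for Pdgfrb, 0.582 for Pdgfra and −0.976 for Acta2. Mpeg1, a macrophage gene, had a log2 fold change of −0.91 for NOX_6_18 in fl/fl, and Fstl1, a secreted glycoprotein of stromal cells, of −0.58.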

How the data were processed

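The deposited files, 1 for each of 16 libraries, hold whole-number read counts by Ensembl gene, and totals differ between libraries. The submitters' processing notes list the GRCm38 build and the tools DESeq 1.8.3, featureCounts 1.5.0 and HISAT with neither role nor order, and the labels' protocols a KAPA stranded kit on total RNA. Annotation release and strand setting were not given in the sources used here. Titles of the samples gave each library's group and replicate number.

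Of 55421 gene identifiers, 55240 (99.7%) were matched to a symbol in GENCODE M21; the rest took at most 0.0173% of a library. Tests used edgeR 4.0.16 (glmQLFit and glmQLFTest, R 4.3.3) on the deposited counts with TMM factors, filterByExpr and Benjamini-Hochberg adjusted p under 0.05 over all genes fitted, 25871 in WAT and 19515 in liver, with the 8 libraries of a tissue in 1 fit. WAT against liver used all 16 libraries and 26751 genes. Each SE was back-computed from the log2 fold change and the F statistic. CPM is the count over the TMM-scaled total; FPKM also divides by the union of GENCODE exons. Intervals and p-values cover no error of library preparation shared by a group.

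The members and the 21 gene lists were chosen with earlier results of these data known. From each list up to 4 called genes with the smallest adjusted p for NOX_6_18 in fl/fl WAT were named, except 1 gene not reported here, and exceptions are said to be named after their values were seen. Alternatives were DESeq2 size factors, library totals, removal of a GC and length trend with recentring, no filter or one of 50 counts in 2 libraries, limma 3.58.1 (voom), DESeq2 1.42.0, replicate number as a block, a fit of only the groups compared, and each library left out in turn; a fit without the fl/fl vehicle libraries was added after seeing the data. The edgeR step was tested on simulated data. Same-numbered libraries did not deviate together (correlations −0.11 to 0.20 in WAT and −0.10 to 0.08 in liver), so the numbers were not taken as pairs.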

Additional observations from a re-analysis of the deposited data

Results flagged for a closer look

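The results here are those in which an effect differed between groups by a test of the difference itself (edgeR, adjusted p under 0.05). In WAT, the NOX_6_18 effect in CKO minus that in fl/fl was 1.08 for Postn, 1.16 for Lum, 0.35 for Dcn, 0.68 for Fn1, 0.76 for Sparc, 0.62 for Fbn1, 0.56 for Lox, 1.09 for Pdgfrb and −0.68 for Acta2 on the log2 scale. Dcn kept direction and call under 10 of 16 alternatives, and Fn1 and Fbn1 each under 9. Acta2 kept both under 15 and was 0.0844 with the GC and length trend removed. Postn, Lum, Sparc, Lox and Pdgfrb kept both under all 16.

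The NOX_6_18 effect in fl/fl WAT minus that in fl/fl liver was −1.33 for Postn, −2.21 for Lum, −0.54 for Dcn, −0.81 for Sparc, −0.89 for Lox, −0.97 for Pdgfra and −0.88 for Pdgfrb. For Lum the tissues also took opposite signs, with a fall of 1.28 in WAT (called) and a rise of 0.93 in liver (called). The Pdgfra difference goes with 0.90 in liver and −0.05 in WAT, neither past the test within its tissue. It kept direction and call under 9 of 17 alternatives, and the Dcn difference under 15. The other differences listed for NOX_6_18 kept both under all 17.

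The CKO effect on vehicle in WAT minus that in liver was −1.19 for Postn, −1.89 for Lum, −0.47 for Dcn, −0.76 for Sparc, −1.36 for Lox, −0.83 for Pdgfra, −0.85 for Pdgfrb and 0.41 for Acta2. The Dcn, Pdgfra and Acta2 calls here were each lost without 1 of several libraries, as given above. Every one of these differences uses the fl/fl vehicle libraries of 1 or both tissues. With 2 libraries a group, no test for a library that stands apart within its group was made.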

How the results depend on the processing

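Of the counts of members called, 450 values under an alternative stayed within 1.5 times of the main count, 14 were higher and 40 lower. The 450 include counts of 0 that stayed at 0, as in the comparisons where no member was called. Of single-gene fold changes 1025 kept direction and side of the threshold, 90 lost the call, 12 gained one and 23 changed sign. Postn, Lum, Dcn, Sparc, Lox and Pdgfrb kept direction and call in WAT under each of the 13 alternatives for NOX_6_18 in fl/fl and for CKO on vehicle; their size moved by over 1.5 times for Dcn with library totals, and for Lum and Pdgfrb once a GC and length trend was taken out, as given above, and the causes of these and the next changes were not tested. Library totals alone moved the fold changes of all WAT genes by a median of 0.17 and made 82.6% of calls higher for NOX_6_18 in fl/fl, against 65.1% with TMM and 50.5% after removal of the GC and length trend; for CKO on vehicle it was 83.5%, against 66.3% and 50.8%.

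After removal of the GC and length trend, 0 members were called higher in the 3 WAT comparisons with fl/fl on vehicle and 0 lower for the WAT interaction; Fn1 was 0.0157 and Acta2 −0.17 for NOX_6_18 in fl/fl, Acta2 −0.12 for CKO on vehicle and 0.0844 for the interaction, and Pdgfra 0.0704, 0.0558 and −0.11 for these 3. In liver 1 was called higher for NOX_6_18 in fl/fl and for CKO on vehicle, with Sparc at −0.0121 for CKO on vehicle; for the WAT against liver difference of the NOX_6_18 effect 1 was higher and Acta2 was −0.48, and for that of the CKO effect 0 were higher, with Fn1 at 0.19 and Acta2 at −0.41. With library totals 5 members were higher for the WAT interaction, Pdgfra was 0.12 for NOX_6_18 in fl/fl, 0.0392 for CKO on vehicle and −0.0662 for the interaction; in liver 1 was higher and 0 lower for CKO on vehicle and 0 lower for CKO on NOX_6_18; and 1 was higher for the tissue difference of NOX_6_18.

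For the liver interaction, 1 member was higher with no filter, and 1 higher and 1 lower with at least 50 counts in 2 libraries; DESeq2 and limma-voom each gave 1 higher. For liver CKO on NOX_6_18, the strict filter, DESeq2 and limma-voom gave 2 higher. For the tissue difference of NOX_6_18, the strict filter and DESeq2 gave 1 higher. With only the groups compared, liver gave 1 higher for NOX_6_18 in fl/fl and 0 for CKO on vehicle, and the tissue difference of CKO gave 0 higher. With the replicate number as a block, 1 member was called higher for CKO on vehicle in liver, and no other count of calls changed by over 1.5 times.

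Leaving out each library in turn, the members called in WAT ran from 6 to 8 lower for NOX_6_18 in fl/fl, 8 to 9 for CKO on vehicle, 6 to 8 for CKO on NOX_6_18 and 5 to 8 higher for the interaction. In liver they ran from 1 to 1 higher for NOX_6_18 in fl/fl, 0 to 0 higher and lower for CKO on vehicle, 0 to 1 higher and 0 to 0 lower for CKO on NOX_6_18, and 0 to 1 higher for the interaction. The tissue differences ran from 6 to 8 lower and 0 to 1 higher for NOX_6_18 and from 5 to 7 lower and 0 to 1 higher for CKO. Sign changes were of Pdgfra, −0.139 to 0.0474 for NOX_6_18 in fl/fl WAT; in liver of Sparc, −0.0466 to 0.0112, and Pdgfrb, −0.297 to 0.022, for NOX_6_18, and of Postn, −0.0276 to 0.271, Sparc, −0.0067 to 0.014, and Fbn1, −0.159 to 0.0234, for CKO on vehicle; and of Fn1, −0.119 to 0.253, for the tissue difference of NOX_6_18. Whether depth decided the liver calls of Lox (94 to 212 counts a library) and Pdgfra (131 to 363) was not tested, and 2 libraries a group limit every test.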

Other observations

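Of 10 genes of the TGF-beta pathway, which drives matrix production in fibroblasts, 5 fell and 0 rose in fl/fl WAT on NOX_6_18, against vehicle (edgeR adjusted p under 0.05), with a median log2 fold change of −0.26. Of all genes fitted, 24.6% rose and 13.2% fell in this comparison, and these shares apply to every list count given for it. Tgfbr2, a receptor, fell by 0.56 (adjusted p = 0.000288) and the ligand Tgfb1 by 0.58 (adjusted p = 0.000475). Of 14 fibroblast and adipose progenitor markers 8 fell and 1 rose: Fap, a membrane protease of activated fibroblasts, fell by 1.07 (adjusted p = 0.000204), Dpt, dermatopontin, by 0.70 (adjusted p = 2.59e-05), Clec3b by 0.63 (adjusted p = 0.00031) and Thy1 by 0.67 (adjusted p = 0.000452). Of 10 basement membrane glycoproteins 5 fell and 1 rose, with Nid1 (nidogen-1) falling by 0.54 (adjusted p = 0.000717); that list's median was −0.28, and it was 0.14 after a trend in GC and length was taken out. Of 12 macrophage markers 9 fell and 1 rose, of 8 endothelial markers 7 fell and 0 rose, of 9 adipocyte markers 3 fell and 4 rose, of 6 mesothelial markers 0 fell and 1 rose, of 7 stellate cell markers 2 fell and 3 rose, of 10 hepatocyte markers 0 fell and 7 rose, of 6 spermatid markers 0 fell and 6 rose, of 6 Leydig cell markers 0 fell and 6 rose, and of 6 epididymal markers 1 fell and 5 rose.

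Some matrix genes outside the 10 had group means that ran in opposite directions in the tissues, as those of Lum did. Their liver changes are given as means only, without the test within liver. Thbs2 stood at 67.8 ± 1.79 CPM in fl/fl WAT on NOX_6_18 and 142 ± 9.79 CPM in fl/fl WAT on vehicle, and at 10.2 ± 1.11 CPM in fl/fl liver on NOX_6_18 and 6.30 ± 0.928 CPM in fl/fl liver on vehicle (SD, n = 2 each). The tissue difference of the NOX_6_18 effect was −1.76 for Thbs2 (edgeR adjusted p = 3.84e-05) and −1.41 for Dpt (adjusted p = 1.93e-06). Dpt stood at 11.5 ± 0.245 CPM in fl/fl liver on NOX_6_18 and 7.02 ± 0.323 CPM in fl/fl liver on vehicle. Both genes were named for this after their values were seen.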
